A study of Mus musculus with 60 samples.

Results

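The effect of VC, a pair of additives used to speed up reprogramming, was measured on day 4 of induction in fibroblasts from ERCC1-deficient mice. The 6 RNA-seq libraries compared, of 60 samples in the series, were the D/KO day 4 plus VC group (3 libraries) and the D/KO day 4 group without VC (3 libraries), grouped by their labels. D/KO cells were male tail tip fibroblasts taken at 8 weeks of age on a hybrid C57BL6J and FVB background, which carried 1 truncated and 1 null allele of Ercc1, a doxycycline-inducible 4Fj cassette that encodes Oct4, Sox2, Klf4 and c-Myc as a single transcript, and the rtTA transactivator that switches it on. Both groups received doxycycline at 2 µg/ml for 4 days in 3% O2 at no more than 3 passages, and they differed in ascorbic acid at 50 µg/ml and the GSK3 inhibitor CHIR at 3 µM. The effect was set beside that of VC in WT cells at day 4, in D/KO cells at day 2 and in D/KO cells at day 0, which received no doxycycline. WT cells carried a cassette of the same factors, labelled 4FJ although the methods also describe another source mouse for such cells, with an Oct4-GFP reporter and were female, taken at 22 weeks, so that genotype, cassette, sex, age, reporter and cell line cannot be told apart in any difference between D/KO and WT cells. RNA was extracted in triplicate, and the sources used here do not say whether the 3 libraries of a group came from separate animals or cultures, so p-values measure the spread between these samples, which may be technical.

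ERCC1 forms with XPF (Ercc4) the endonuclease that cuts beside a lesion in nucleotide excision repair and that trims DNA ends in crosslink repair. Expression of Oct4, Sox2, Klf4 and c-Myc drives fibroblasts through an early phase in which mesenchymal genes are silenced, epithelial genes are switched on and division speeds up, before any pluripotency network is in place. GSK3 marks beta-catenin for destruction, so its inhibition lets beta-catenin accumulate and activate Tcf/Lef target genes, among them negative feedback regulators such as Axin2. Ascorbic acid is a cofactor of iron-dependent dioxygenases, which include the prolyl hydroxylases of collagen, the Tet enzymes that oxidise methylated cytosine and the Jumonji histone demethylases.

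The 6 libraries held 17008108 to 18437695 counts, and no library stood apart. On the log2 scale the root mean square difference between libraries was 0.300 to 0.457 within a group and 0.691 to 0.770 between the groups. Counts on mitochondrially encoded genes made up 1.10% to 1.42% of a library at day 4 and 1.34% to 2.20% with VC. Fibroblast markers were present at high levels in every library: 286, 238 and 289 CPM at day 4 and 213, 161 and 159 CPM with VC for Pdgfra, the PDGF receptor alpha, and 753, 797 and 712 CPM at day 4 and 555, 672 and 681 CPM with VC for Thy1. Levels are given throughout as CPM, the usual depth-scaled count, with TMM factors, which do not correct for gene length, and the values of the 3 libraries of a group are listed in the order of their accession, which carries no meaning.

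Ercc1 (chromosome 7, 19078703 to 19090449, GRCm39) did not separate the groups, at 9.61, 9.35 and 10.1 CPM at day 4 and 8.04, 9.30 and 11.7 CPM with VC (log2 fold change 0.00, SE 0.17, adjusted p = 1). Reads of the truncated allele still count towards the gene, so its level alone does not check the genotype. At day 4 its mean was 9.683 CPM without and 9.677 CPM with VC in D/KO cells, and 17.61 and 17.73 CPM in WT cells. Genotype and cell line cannot be told apart in this difference. Transcripts of the 4 factors cannot be told apart from those of the cassette. Pou5f1 (Oct4) stood at 70.9, 42.8 and 78.4 CPM at day 4 and 149.7, 118 and 89.7 CPM with VC (log2 fold change 0.90, adjusted p = 0.0145). Myc rose by 0.53 (adjusted p = 0.00011), Klf4 by 0.61 (adjusted p = 0.0121) and Sox2 by 0.65 (adjusted p = 0.0286) on the log2 scale. The 3 libraries with VC lay above the 3 without it for each of the 4. Without plus VC replicate 1 the call was kept by Myc and lost by Pou5f1 (adjusted p = 0.0879), Klf4 (adjusted p = 0.0792) and Sox2 (adjusted p = 0.148). Without day 4 replicate 2 the same held for Pou5f1 (adjusted p = 0.093), Klf4 (adjusted p = 0.0918) and Sox2 (adjusted p = 0.169), and Sox2 also lost it without day 4 replicate 1 (adjusted p = 0.0722).

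VC changed the level of a large part of the expressed genome. Of 15832 genes tested with edgeR's quasi-likelihood test, 2636 (16.6%) were called higher and 2802 (17.7%) lower with VC at a Benjamini-Hochberg adjusted p under 0.05, and 907 of the former and 927 of the latter differed by at least 2-fold. The median log2 fold change of all genes tested was 0.01. Gene lists are therefore described by how many of their members were called in each direction, read against 16.6% and 17.7%, and by their median. Counts of 0, 1 or 2 calls on a list rest on single genes, and where leaving out 1 library moved such a count it came to between 0 and 4. In the plot of list members the highest medians were those of keratins (1.58, or 1.39 with at least 10 counts in every library, which leaves out keratins near silent in any group) and mitosis genes (1.58), and the lowest was that of contractile genes (-1.73).

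**Figure D1:**
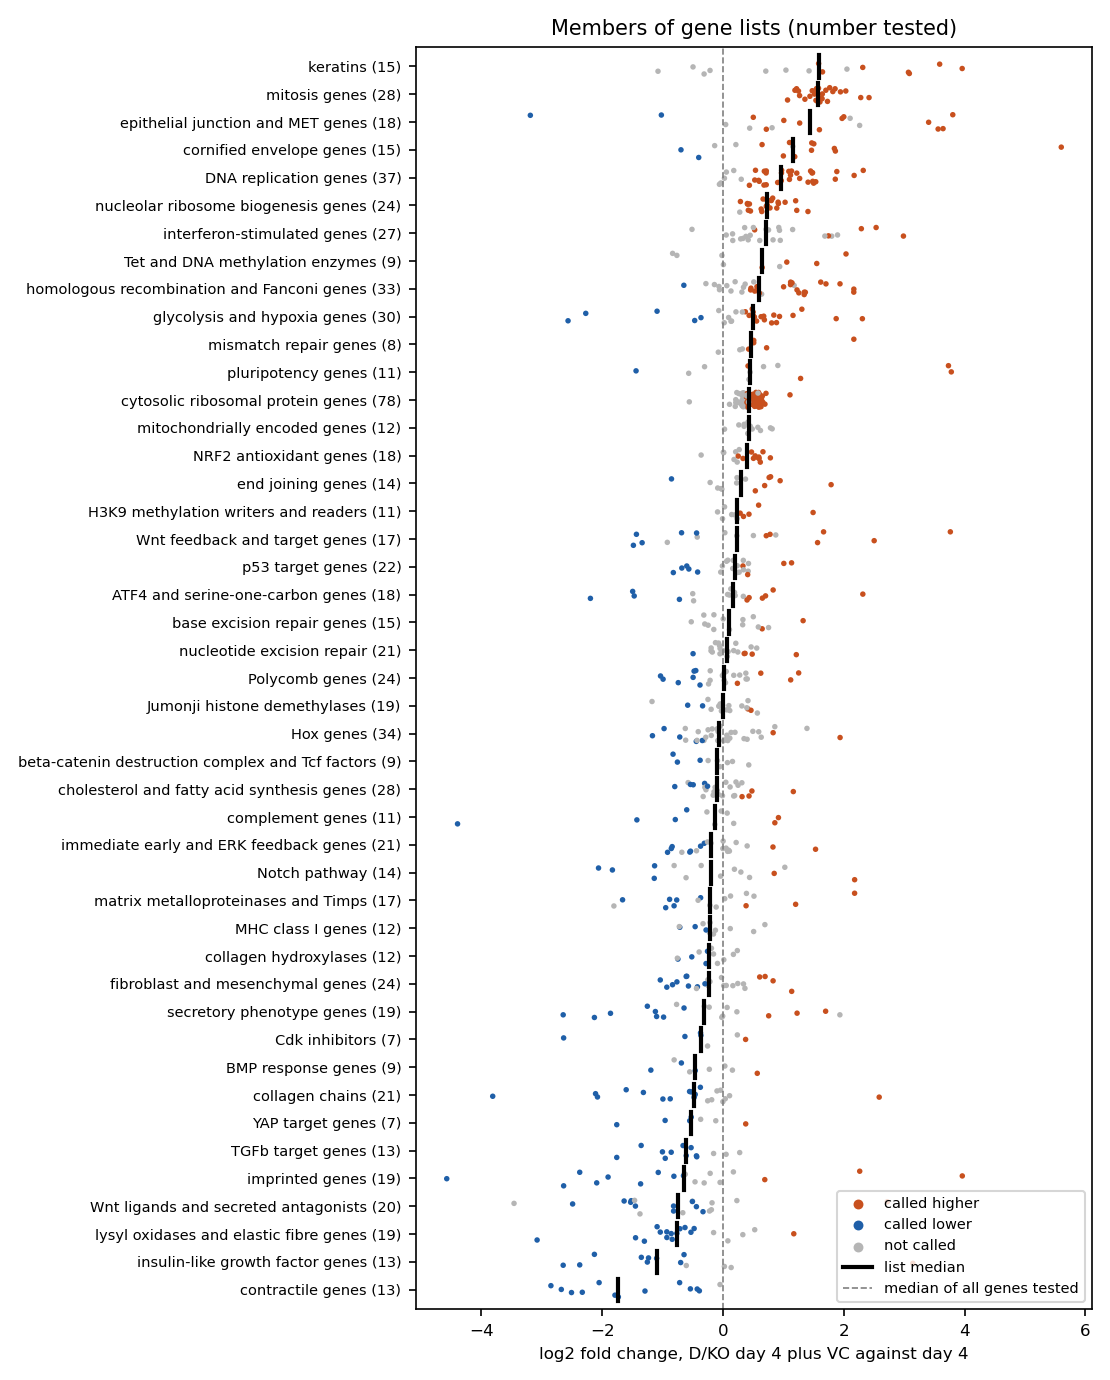
Log2 fold change of D/KO day 4 plus VC against day 4 (horizontal axis) for every tested member of the gene lists with at least 7 tested members, markers of other cell types left out, 1 row a list, with the number tested in brackets. Points are genes coloured by their call at adjusted p under 0.05, black ticks are list medians, and the dashed line is the median of all genes tested (0.01); the 28 mitosis genes were all called higher, while 12 of the 13 contractile genes were called lower.

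Several direct targets of beta-catenin rose, though the list as a whole was split. Axin2 (chromosome 11, 108811175 to 108841609, GRCm39), the scaffold of the destruction complex and a feedback target of Wnt signalling, was at 1.47, 1.83 and 3.88 CPM at day 4 and 13.0, 10.3 and 17.4 CPM with VC. The 2 groups did not overlap (log2 fold change 2.50, SE 0.25, adjusted p = 3.42e-10). Tcf7, which encodes a transcription factor that partners beta-catenin, was at 7.38, 6.48 and 11.8 CPM at day 4 and 26.4, 28.5 and 26.7 CPM with VC (log2 fold change 1.67, adjusted p = 6.56e-07). Notum, a secreted enzyme that inactivates Wnt ligands, was at 0.109, 0.157 and 0.270 CPM at day 4 and 2.06, 2.90 and 2.58 CPM with VC (log2 fold change 3.76, adjusted p = 0.000181). Of 17 tested members of the list of Wnt feedback and target genes, 6 were called higher and 5 lower, with a median of 0.23. Apcdd1, an inhibitor of Wnt receptors, and Lgr6, an R-spondin receptor, also rose (log2 fold changes 0.78 and 1.57). In contrast Nkd1, another feedback inhibitor, was at 4.72, 4.60 and 4.32 CPM at day 4 and 1.48, 2.28 and 1.63 CPM with VC, without overlap (log2 fold change -1.34, adjusted p = 0.000474). Sox9, Lgr5, Fzd7 and Ccnd1 (cyclin D1) fell as well, with log2 fold changes of -1.48, -1.43, -0.68 and -0.44. The changes of Lef1 (-0.92, adjusted p = 0.106) and Sp5 (0.87, adjusted p = 0.236) did not pass the test. The letters CTTTGAT, a core Tcf/Lef motif, were found on either strand in the RefSeq promoter window of 1 of the 10 list members that have one (Sp5), beside 3.16% of all 11280 tested genes with a window.

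Among genes for Wnt ligands and their secreted antagonists, lower calls outnumbered higher ones. Of 20 tested, 10 were called lower and 1 higher (median -0.74). Without day 4 replicate 1 the number lower was 5. Dkk3, a member of the Dickkopf family, was at 191, 179 and 182 CPM at day 4 and 62.7, 58.1 and 56.7 CPM with VC (log2 fold change -1.64, adjusted p = 9.21e-18). The decoy receptor gene Frzb and the ligand genes Wnt4 and Wnt2 fell by 2.49, 1.53 and 1.45 on the log2 scale. Wnt5a, a ligand of the noncanonical branch, fell by 0.33 (adjusted p = 0.0124), a call that was lost without plus VC replicate 2 (adjusted p = 0.0682) or day 4 replicate 1 (adjusted p = 0.0891). Wnt7a rose by 2.72 (adjusted p = 0.000405). Among 9 genes of the destruction complex and the Tcf factors, none was called higher and 3 were called lower, which included the repressive factor gene Tcf7l1 (-0.83) and Tcf7l2 (-0.75).

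**Figure D2:**
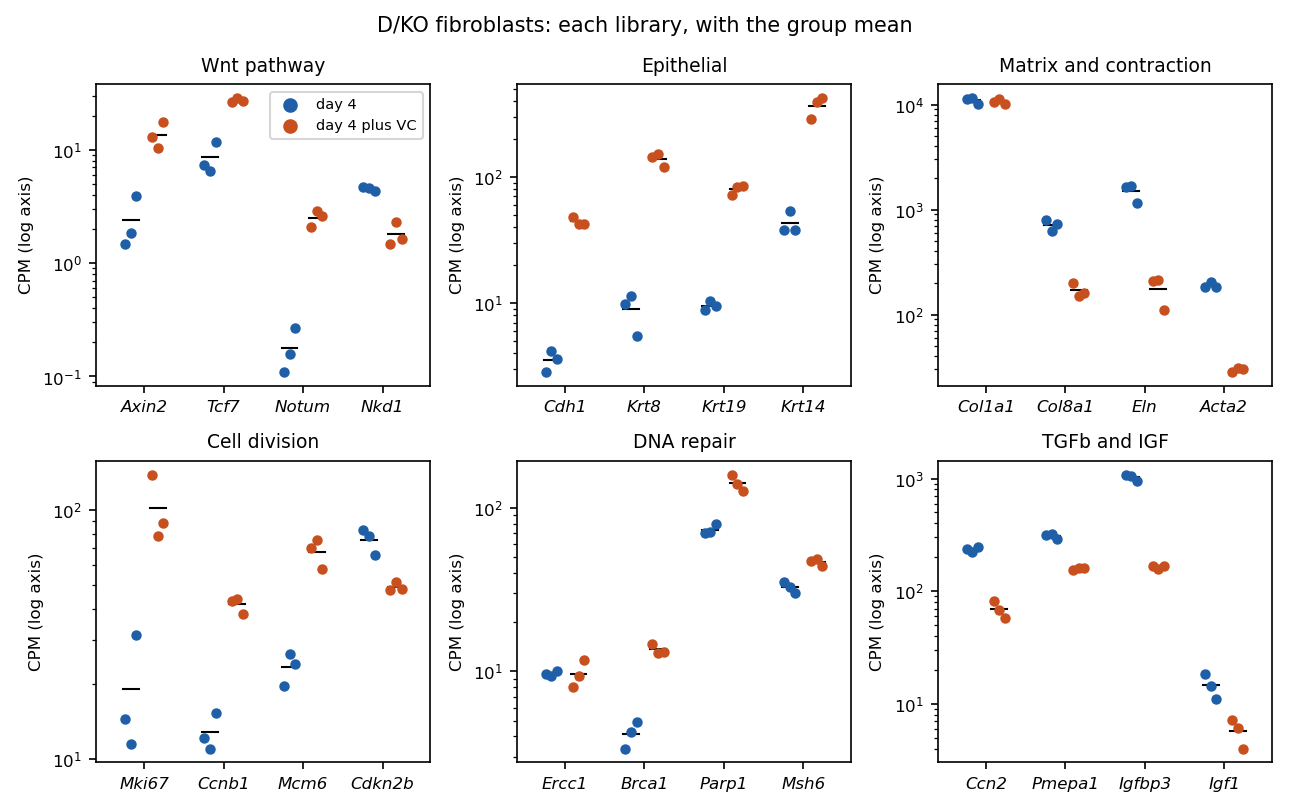
Level of 24 genes in each of the 6 D/KO libraries at day 4 (blue) and day 4 plus VC (orange), in CPM on a log axis, with the group mean as a bar. Axin2, the 4 epithelial genes and the mitotic genes lie higher in every library with VC, Acta2, Eln, Col8a1 and Igfbp3 lie lower in every one, and Col1a1 and Ercc1 overlap between the groups.

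Transcripts of the enzymes that use ascorbic acid were called in both directions, and these data do not measure their activity. Of 12 genes for collagen hydroxylases and their partners, not all of which use ascorbic acid themselves, 4 were called lower and none higher (median -0.22). P4ha2, a catalytic subunit of prolyl 4-hydroxylase, fell by 0.74 on the log2 scale (adjusted p = 3.35e-05), and Crtap, a partner of the prolyl 3-hydroxylase, by 0.52 (adjusted p = 0.000103). P4ha1 was called lower (-0.28, adjusted p = 0.0159), yet not without plus VC replicate 1 (adjusted p = 0.178), plus VC replicate 2 (adjusted p = 0.077) or day 4 replicate 3 (adjusted p = 0.066). The number lower was 2 when either of these plus VC libraries was left out. Plod2, a lysyl hydroxylase, had a log2 fold change of 0.17 (adjusted p = 0.463, or 0.0333 without day 4 replicate 3). Of 9 Tet and DNA methylation genes, 4 were called higher, none of them a Tet enzyme that uses ascorbic acid. They included Uhrf1, which guides maintenance methylation at replication forks and stood at 9.23, 8.52 and 7.99 CPM at day 4 and 38.0, 38.7 and 29.0 CPM with VC (log2 fold change 2.04, adjusted p = 1.48e-12), Dnmt1 (1.06) and Dnmt3b (1.55). Tet1 was near the limit of detection, with at most 1.36 CPM in any library (log2 fold change -0.76, adjusted p = 0.209), and without plus VC replicate 1 it was called lower (log2 fold change -1.88, adjusted p = 0.00687). Of 19 Jumonji demethylase genes, 2 were called in each direction (median 0.00), under the shares of all genes, among them Kdm4b (-0.58, adjusted p = 0.000183). Kdm2b and Kdm3a, which have been tied to ascorbic acid in reprogramming, had log2 fold changes of 0.06 and 0.31 (adjusted p = 0.785 and 0.147), and Kdm3a passed the threshold without day 4 replicate 3 (adjusted p = 0.0495).

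A few genes of pluripotent cells were called higher, while others were at trace counts. L1td1, which encodes an RNA-binding protein of embryonic stem cells, was at 15.5, 17.7 and 15.4 CPM at day 4 and 262, 228 and 178 CPM with VC (log2 fold change 3.78, SE 0.19, adjusted p = 7.76e-15). Gdf3, a TGFb family ligand, was at 0.271, 0.314 and 0.324 CPM at day 4 and 3.44, 4.07 and 4.85 CPM with VC (log2 fold change 3.73, adjusted p = 4.18e-05). In both genes every library with VC lay above every library without it. Trim71 was called higher (1.29, adjusted p = 0.0232) but lost the call without plus VC replicate 1 (adjusted p = 0.143) or day 4 replicate 1 (adjusted p = 0.109). Klf2, a factor of naive pluripotency that endothelial cells also use, fell by 1.44 (adjusted p = 1.45e-06), and Fut4 (SSEA1 synthase) did not pass the test (-0.30, adjusted p = 0.364). Of 28 genes listed, 11 passed the filter on low counts, and 4 of these were called higher and 1 lower; without plus VC replicate 1 the number higher was 2. Nanog had 1, 9 and 1 counts at day 4 and 2, 3 and 2 with VC, and Esrrb, Sall4 and Lin28a had at most 4 counts in any library, so no difference was detectable at this depth. Gata2, a factor of trophoblast and blood progenitors, was at 26.8, 28.3 and 27.2 CPM at day 4 and 108, 109 and 92.1 CPM with VC (log2 fold change 1.91, adjusted p = 3.57e-12). Gata3 rose by 1.67 from a low level (adjusted p = 0.000214). They were the 2 genes called, both higher, of 10 trophoblast genes listed and 5 tested (median 0.31), and Krt7 had 2, 9 and 17 counts at day 4 and 6, 5 and 2 with VC. Of 9 primitive streak and endoderm genes, 2 passed the filter, and edgeR and DESeq2 called 0 of them, with 0 at an unadjusted p under 0.05.

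Some epithelial genes rose many-fold. Cdh1 (E-cadherin), the adhesion protein of epithelial junctions, was at 2.82, 4.18 and 3.62 CPM at day 4 and 48.4, 42.0 and 42.7 CPM with VC. The groups did not overlap (log2 fold change 3.64, SE 0.25, adjusted p = 4.97e-13). The desmosomal linker gene Dsp was at 22.0, 19.2 and 31.7 CPM at day 4 and 108, 78.7 and 99.2 CPM with VC (log2 fold change 1.97, adjusted p = 6.18e-11), and Grhl3 and Esrp2, a transcription factor and a splicing factor of epithelia, rose by 3.80 and 2.00. The list of junction and mesenchymal-to-epithelial transition genes holds 37 members, of which 18 passed the filter and 19 had too few counts to be tested; 11 were called higher and 2 lower (median 1.43), or 2 higher with at least 10 counts in every library, a rule that leaves out genes near silent in any group. Epcam had 0, 1 and 1 counts at day 4 and 16, 12 and 4 with VC, and Esrp1 and Grhl2 had at most 5 in any library. Cdh3 (P-cadherin) went the other way and was at 3.80, 2.77 and 2.91 CPM at day 4 and 0.529, 0.390 and 0.105 CPM with VC (log2 fold change -3.19, adjusted p = 3.97e-08).

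Keratins of simple and of stratified epithelia were among the genes that rose. Krt8, the partner of Krt18 in the filaments of simple epithelia, was at 9.82, 11.4 and 5.45 CPM at day 4 and 144, 153 and 119 CPM with VC (log2 fold change 3.96, adjusted p = 1.05e-11). Krt19, also a simple epithelial keratin, was at 8.85, 10.3 and 9.39 CPM at day 4 and 72.4, 83.4 and 84.1 CPM with VC (log2 fold change 3.07, adjusted p = 6.57e-15). Krt14, a keratin of basal stratified epithelium, was at 37.9, 54.0 and 37.8 CPM at day 4 and 286, 394 and 421 CPM with VC (log2 fold change 3.09, adjusted p = 4.95e-11). The groups did not overlap in any of the 3. Krt18 and Krt5, the usual partners of Krt8 and Krt14, did not pass the test. Krt18 had 0.380, 0.0520 and 0.108 CPM at day 4 and 0.211, 1.78 and 0.316 CPM with VC (adjusted p = 0.0893) and Krt5 at most 0.669 CPM in any library (log2 fold change 0.71, adjusted p = 0.607). Krt18 passed the threshold without plus VC replicate 1 (adjusted p = 0.0485). Of 15 keratins tested, 7 were called higher and none lower, or 1 higher with at least 10 counts in every library. Krt80 and Krt13 rose by 1.58 and 2.31, and Krt6a by 3.59 (adjusted p = 0.0023), which DESeq2 did not call (adjusted p = 0.141). Of 15 tested genes of the cornified envelope, the protein shell of terminally differentiated keratinocytes, 10 were called higher and 2 lower (median 1.16). With at least 10 counts in every library 1 was called higher and the median was -0.40, so the direction of this list rests on genes that are low in some group. Cnfn (cornifelin) was at 0.326, 0.575 and 1.13 CPM at day 4 and 23.6, 34.7 and 41.3 CPM with VC, without overlap (log2 fold change 5.60, adjusted p = 5.49e-11). Nccrp1, Slurp1 and Evpl rose by 1.84, 1.50 and 1.19. The classical envelope genes Ivl and Sprr1a had at most 3 and 24 counts in any library and were not tested. Neither of the 2 lower calls held without plus VC replicate 1, plus VC replicate 2 or day 4 replicate 2.

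Markers of keratinocytes moved with these lists. Of 8 markers, 6 were tested and 4 were called higher (2 with at least 10 counts in every library), namely Krt14, the laminin receptor genes Itga6 (1.39) and Itgb4 (1.19), and Col17a1 (2.59). Their summed level was 695 to 818 CPM at day 4 and 1895 to 2218 CPM with VC. Trp63, which encodes the factor that defines basal keratinocytes, was at 1.52, 0.993 and 1.40 CPM at day 4 and 0.952, 2.01 and 2.37 CPM with VC (adjusted p = 0.421), and Krt5 and Krt15 were at or near 0. In RNA from whole cultures, more cells of a type and more RNA per cell cannot be told apart, and the part of keratinocytes in the epithelial calls was not tested.

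Fibroblast genes were not shut off as a group. Of 24 fibroblast and mesenchymal genes, 9 were called lower and 4 higher (median -0.23), and their summed level was 21750 to 23880 CPM at day 4 and 18820 to 19920 CPM with VC. Pdgfrb, the PDGF receptor beta, was at 377, 350.1 and 364 CPM at day 4 and 225, 212 and 207 CPM with VC (log2 fold change -0.76, adjusted p = 8.4e-09). Pdgfra and Zeb1, a repressor of epithelial genes, fell by 0.61 and 0.57. Twist1, Lum (lumican) and Fap rose by 0.61, 1.14 and 0.83. Lum was at 38.9, 41.8 and 39.4 CPM at day 4 and 100.3, 83.4 and 80.6 CPM with VC, without overlap (adjusted p = 1.09e-08). The changes of Thy1 (-0.24, adjusted p = 0.119), Snai2 (-0.25, adjusted p = 0.0842), Vim (0.06, adjusted p = 0.791) and Dcn (0.34, adjusted p = 0.126) did not pass the test, though Dcn did with no filter on low counts (adjusted p = 0.0204).

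The contractile apparatus fell almost throughout. Acta2 (smooth muscle actin), the marker of myofibroblasts, was at 182, 205 and 182 CPM at day 4 and 28.2, 30.8 and 30.1 CPM with VC (log2 fold change -2.67, SE 0.18, adjusted p = 4.78e-14). Myl9, a myosin light chain, was at 30.0, 35.8 and 36.8 CPM at day 4 and 5.50, 5.57 and 6.95 CPM with VC (log2 fold change -2.51, adjusted p = 2.64e-13). Both were lower in every library with VC. Of 13 contractile genes, 12 were called lower and none higher, with a median of -1.73, and the intermediate filament gene Des fell by 2.33. Tagln was at 1.57, 1.78 and 1.83 CPM at day 4 and 0.423, 0.501 and 0.316 CPM with VC (log2 fold change -2.05, adjusted p = 0.000266), but 62.4% of its exon bases are shared with a lncRNA gene on the opposite strand, and whether the counting used strand is not stated. Of markers of skeletal muscle, Acta1 was at 30.1, 33.4 and 21.5 CPM at day 4 and 2.01, 2.23 and 1.63 CPM with VC (log2 fold change -3.85, adjusted p = 4.41e-09), while Chrna1, a subunit of the acetylcholine receptor, rose by 2.42. Of 7 such markers 3 were tested, their summed level was 38.6 to 49.6 CPM at day 4 and 18.1 to 26.4 CPM with VC, and Myod1, Myog and Pax7 were at 0 in all 6 libraries.

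Matrix genes fell selectively. Of 21 collagen chains, 13 were called lower and 1 higher (median -0.47). Col8a1, a short-chain collagen of vessels and wounds, was at 797, 618 and 734 CPM at day 4 and 199, 150.0 and 161 CPM with VC (log2 fold change -2.08, SE 0.13, adjusted p = 9.48e-16). Col15a1 and Col14a1 fell by 1.60 and 2.11. Of the type I chains, Col1a1 was at 11256, 11493 and 10216 CPM at day 4 and 10665, 11215 and 10194 CPM with VC, with overlap (log2 fold change -0.04, adjusted p = 0.876). Col1a2 was at 9793, 9271 and 9996 CPM at day 4 and 6919, 6969.5 and 6987 CPM with VC, without overlap (log2 fold change -0.48, adjusted p = 0.00522). The difference between these chains was not tested. The paper names the cassette Col1a1-tetO-OKSM, and its part in Col1a1 counts, here and in the comparisons below, was not tested. The change of Col3a1 was -0.46 (adjusted p = 0.0362), and its call was lost without plus VC replicate 2 (adjusted p = 0.137), plus VC replicate 3 (0.0597), day 4 replicate 1 (0.062) or day 4 replicate 3 (0.189). The exception among the lower chains was Col17a1, a hemidesmosomal collagen of epithelia, which rose. Of 19 genes for lysyl oxidases and elastic fibres, 14 were called lower and 1 higher (median -0.76). Eln (elastin) was at 1657, 1662 and 1155 CPM at day 4 and 207, 213 and 111 CPM with VC (log2 fold change -3.08, adjusted p = 2.86e-07). The fibre assembly genes Ltbp3, Fbln5 and Fbn1 fell by 1.45, 1.30 and 1.04, and the crosslinking enzyme genes Lox, Loxl1 and Loxl3 by 0.76, 0.93 and 1.09. Loxl4 rose by 1.17. Among 17 matrix metalloproteinases and their inhibitors, 6 were called lower and 3 higher, or 1 higher without plus VC replicate 2. Mmp11 fell by 1.66, Timp2 by 0.81 and the collagenase gene Mmp13 by 0.76, while the stromelysin gene Mmp3 rose by 1.20.

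Targets of TGFb fell with the matrix. Of 13, 10 were called lower and none higher (median -0.61). Ccn2 (CTGF), also a target of YAP, was at 235, 223 and 247 CPM at day 4 and 82.4, 68.2 and 57.9 CPM with VC (log2 fold change -1.76, adjusted p = 5.17e-09). Pmepa1, a feedback inhibitor of the pathway, was at 314, 320.5 and 289.6 CPM at day 4 and 155, 162 and 159 CPM with VC (log2 fold change -0.95, adjusted p = 1.18e-10). The groups did not overlap in either. Tgfbi and Thbs1 fell by 0.66 and 0.86. Of 7 targets of YAP, 4 were called lower and 1 higher, and Amotl2 fell by 0.96. Of 9 BMP response genes, 3 were called lower and 1 higher. Smad6, an inhibitor of BMP signalling, fell by 1.19 (adjusted p = 1.57e-08), and Id1 (-0.22, adjusted p = 0.635) and Id3 (-0.55, adjusted p = 0.0932) did not pass the test. At a like fold change Id3 was called lower with only the 18 D/KO libraries (adjusted p = 0.00954), only the 6 libraries compared (0.0184) or no filter on low counts (2.62e-05).

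Of 13 insulin-like growth factor genes, 9 were called lower and 1 higher (median -1.10). Igfbp3, which binds IGF1 and prolongs its life in plasma, was at 1081, 1049 and 949.6 CPM at day 4 and 166, 157 and 169 CPM with VC (log2 fold change -2.64, SE 0.14, adjusted p = 2.44e-17). Igf1 itself was at 18.6, 14.5 and 11.0 CPM at day 4 and 7.14, 6.13 and 4.00 CPM with VC (log2 fold change -1.35, adjusted p = 4.92e-07). Both were lower in every library with VC. Igfbp5 and Igfbp4 fell by 2.13 and 1.25. The gene that rose was Igf2bp1, an RNA-binding protein of embryonic tissue (3.14, adjusted p = 1.39e-05). In the Notch pathway, 4 of 14 genes were called lower and 2 higher. Notch4 was at 15.5, 18.9 and 13.9 CPM at day 4 and 85.1, 81.1 and 52.4 CPM with VC (log2 fold change 2.18, adjusted p = 1.89e-12), while Notch3 fell by 1.14 and the target genes Hey2 and Heyl fell, with log2 fold changes of -2.06 and -1.83. Of 21 immediate early and ERK feedback genes, 7 were called lower and 2 higher, with Spry2 at -0.92 and Etv4 at 1.53.

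Genes of cell division rose together. Each of the 28 mitosis genes was called higher, with a median of 1.58 and a lowest value of 1.07. Mki67 (Ki-67), a marker of cycling cells, was at 14.4, 11.5 and 31.3 CPM at day 4 and 138, 78.7 and 88.8 CPM with VC. The groups did not overlap, though day 4 replicate 3 lay above the other libraries without VC (log2 fold change 2.42, SE 0.29, adjusted p = 1.2e-07). Ccnb1 (cyclin B1), which drives entry into mitosis, was at 12.2, 11.0 and 15.2 CPM at day 4 and 43.1, 43.7 and 38.2 CPM with VC (log2 fold change 1.70, adjusted p = 1.39e-09). Its kinase partner Cdk1, the ubiquitin-conjugating enzyme gene Ube2c, Top2a and Cdc20 rose by 1.19, 2.03, 1.63 and 1.48. Of 37 DNA replication genes, 31 were called higher and none lower (median 0.97). Mcm6, a subunit of the replicative helicase, was at 19.6, 26.3 and 24.0 CPM at day 4 and 70.0, 75.3 and 57.7 CPM with VC (log2 fold change 1.54, adjusted p = 4.92e-11). The origin licensing gene Cdt1, the ribonucleotide reductase subunit gene Rrm1, Mcm2 and Pcna rose by 1.86, 1.10, 1.12 and 0.69. Ccne1 (cyclin E1) did not pass the test (0.18, adjusted p = 0.245).

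The promoters of these lists were searched for motifs. The letters TTTGAA, the core of the cell cycle genes homology region (CHR) bound by the DREAM and MuvB complexes, were found on either strand in the RefSeq promoter window (250 bases before to 50 after the start, build GRCm38.p6) of 18 of 24 mitosis genes with a window (75.0%), in 5 of 29 replication genes (17.2%) and in 14.5% of all tested genes with a window. The E2F letters TTTGGCGC or TTTCCCGC were found in 11 of the 29 replication genes (37.9%), in none of the 24 mitosis genes and in 3.27% of all tested genes. A match is a description of the letters, not a bound site. The 5 windows below are examples, picked among genes named above whose window holds a match; matches are in capitals, the strand is that of the gene, and the CHR windows come first.
Mki67 promoter, chr7:135716330-135716629, minus strand: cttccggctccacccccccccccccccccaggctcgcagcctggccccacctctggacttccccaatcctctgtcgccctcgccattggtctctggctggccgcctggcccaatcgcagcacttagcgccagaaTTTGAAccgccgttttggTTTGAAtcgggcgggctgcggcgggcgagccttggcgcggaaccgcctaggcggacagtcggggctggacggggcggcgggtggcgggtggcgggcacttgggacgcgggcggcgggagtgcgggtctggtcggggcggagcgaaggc
Cdk1 promoter, chr10:69352863-69353162, minus strand: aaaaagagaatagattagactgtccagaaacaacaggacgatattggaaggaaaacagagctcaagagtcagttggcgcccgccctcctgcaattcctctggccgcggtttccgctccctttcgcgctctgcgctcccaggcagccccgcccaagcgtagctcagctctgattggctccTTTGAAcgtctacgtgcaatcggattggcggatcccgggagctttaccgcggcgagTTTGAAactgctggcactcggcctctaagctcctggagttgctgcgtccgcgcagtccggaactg
Cdc20 promoter, chr4:118437294-118437593, minus strand: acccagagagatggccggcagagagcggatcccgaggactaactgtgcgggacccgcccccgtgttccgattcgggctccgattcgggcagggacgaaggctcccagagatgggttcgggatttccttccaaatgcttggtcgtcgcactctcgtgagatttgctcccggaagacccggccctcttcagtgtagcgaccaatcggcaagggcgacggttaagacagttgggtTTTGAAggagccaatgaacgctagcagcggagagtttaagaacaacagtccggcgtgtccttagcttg
Mcm6 promoter, chr1:128359656-128359955, minus strand: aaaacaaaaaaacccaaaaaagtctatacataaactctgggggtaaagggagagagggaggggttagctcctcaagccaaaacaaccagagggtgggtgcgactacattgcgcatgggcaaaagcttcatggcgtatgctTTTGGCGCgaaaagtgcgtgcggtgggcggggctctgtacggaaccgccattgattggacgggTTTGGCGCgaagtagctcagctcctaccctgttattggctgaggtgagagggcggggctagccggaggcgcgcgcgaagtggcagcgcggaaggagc
Cdt1 promoter, chr8:122567765-122568064, plus strand: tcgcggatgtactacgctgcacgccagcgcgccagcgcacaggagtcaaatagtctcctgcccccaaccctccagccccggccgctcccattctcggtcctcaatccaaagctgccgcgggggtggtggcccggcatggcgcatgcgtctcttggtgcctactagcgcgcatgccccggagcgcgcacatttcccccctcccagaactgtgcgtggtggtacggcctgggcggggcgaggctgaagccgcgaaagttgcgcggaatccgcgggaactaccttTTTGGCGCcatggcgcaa
The window of Mki67 holds TTTGAA at 116 to 111 and at 98 to 93 bases before the start, and that of Cdk1 at 71 to 66 and 15 to 10 bases before it. Cdc20 has its match 18 to 13 bases before the start. The 2 E2F matches of Mcm6 lie 110 to 103 and 47 to 40 bases before the start, and that of Cdt1 lies 32 to 39 bases after it.

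Of 7 cyclin-dependent kinase inhibitors, 4 were called lower and 1 higher, or 2 lower without plus VC replicate 2 or without day 4 replicate 1. Cdkn2b (p15), which blocks Cdk4 and Cdk6, was at 82.7, 78.5 and 65.9 CPM at day 4 and 47.8, 51.1 and 47.9 CPM with VC, without overlap (log2 fold change -0.63, adjusted p = 0.000494). Cdkn1c (p57) fell by 2.64 from a low level (adjusted p = 4.93e-05). Cdkn2a, the locus of p16 and p19, was called lower (-0.37, adjusted p = 0.049), but not without plus VC replicate 1 (adjusted p = 0.316), plus VC replicate 2 (0.0547), day 4 replicate 1 (0.0978) or day 4 replicate 2 (0.228). Cdkn1a (p21), the p53 target that halts the cycle after damage, was at 606, 667 and 519.7 CPM at day 4 and 622, 767 and 725 CPM with VC (log2 fold change 0.24, adjusted p = 0.0617), and passed the threshold without plus VC replicate 1 (adjusted p = 0.0237) or day 4 replicate 2 (adjusted p = 0.0221), with DESeq2 (0.0277) and with at least 10 counts in every library (0.041). Of 22 p53 target genes, 4 were called higher and 5 lower, not far from the shares of all genes. Sesn1 and the death receptor gene Fas fell by 0.68 and 0.60. Mdm2, the ligase that degrades p53, rose by 0.33 (adjusted p = 0.0208), a call lost without plus VC replicate 1 (adjusted p = 0.0719), plus VC replicate 3 (0.075) or day 4 replicate 2 (0.0801).

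Calls among repair genes were read by pathway beside the 16.6% of all genes called higher, and differences between pathways were not tested. Homologous recombination and Fanconi genes, which act on replication-associated breaks and on crosslinks, had 19 of 33 called higher and 1 lower (median 0.60). Brca1 was at 3.37, 4.23 and 4.91 CPM at day 4 and 14.7, 13.0 and 13.2 CPM with VC (log2 fold change 1.71, SE 0.22, adjusted p = 9.95e-08). Exo1, an exonuclease that resects breaks, and Fancd2 rose by 2.17 and 1.62, and Usp1, which removes ubiquitin from Fancd2 protein, by 0.60. In nucleotide excision repair, the pathway of Ercc1, 4 of 21 genes were called higher and 1 lower (median 0.07), a share near that of all genes. Ercc4 (XPF), the partner of Ercc1, was at 21.9, 24.1 and 23.8 CPM at day 4 and 32.3, 29.7 and 35.6 CPM with VC, without overlap (log2 fold change 0.48, adjusted p = 0.000821). The replicative ligase gene Lig1 rose by 1.21. Of 14 end joining genes, 6 were called higher and 1 lower. Parp1, which senses strand breaks, was at 70.0, 71.2 and 80.0 CPM at day 4 and 159.5, 141 and 126 CPM with VC (log2 fold change 0.95, adjusted p = 9.96e-10), and Xrcc5, Xrcc6 (the Ku subunits) and Polq rose by 0.69, 0.76 and 1.79. Of 8 mismatch repair genes, 5 were called higher, or 2 without plus VC replicate 1 or without day 4 replicate 2, and Msh6 rose by 0.51. Of 15 base excision repair genes, 2 were called higher and none lower, again near the share of all genes. Many repair genes are transcribed in S phase, and the part of the rise in cell division genes in these calls was not tested.

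Secreted and immune genes gave a mixed picture. Of 19 tested genes of the senescence-associated secretory phenotype, 8 were called lower and 3 higher (median -0.31). The lower ones included the IGF-binding proteins above and Csf1, which was at 438, 400.4 and 525 CPM at day 4 and 243, 229.9 and 217 CPM with VC (log2 fold change -0.98, adjusted p = 1.02e-10). Ccl8 rose by 1.70, and Cxcl1 (0.23, adjusted p = 0.743) and Ccl2 (-0.23, adjusted p = 0.54) did not pass the test. Il6 had 2, 5 and 6 counts at day 4 and 3, 0 and 0 with VC and was not tested. Of 27 interferon-stimulated genes, 5 were called higher, near the share of all genes, and none lower. The number higher was 0 without plus VC replicate 1, 1 without day 4 replicate 1 and 3 without plus VC replicate 2 or day 4 replicate 3. It was 2 with only the 6 libraries or with at least 10 counts in every library and 15 with no filter on low counts. Isg15 (0.95, adjusted p = 0.412) did not pass the test, but did with no filter (adjusted p = 0.000512). Of 12 MHC class I genes 3 were called lower, or 1 without day 4 replicate 2, with the peptide transporter gene Tap2 at -0.71. Of 11 complement genes, 4 were called lower and 2 higher; C4b fell by 1.42, and Masp1, a serine protease of the lectin pathway, rose by 0.86.

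Most genes of glycolysis and hypoxia rose, and a few fell steeply. Of the 30 genes listed, 18 were called higher and 5 lower (median 0.49). Pfkp, the platelet isoform of phosphofructokinase, was at 52.8, 60.7 and 56.8 CPM at day 4 and 115, 136 and 129.9 CPM with VC (log2 fold change 1.16, adjusted p = 5.83e-10). Pgk1 and the glucose transporter gene Slc2a3 rose by 0.94 and 1.87. Ndrg1 was at 146, 152 and 111 CPM at day 4 and 24.5, 27.6 and 32.8 CPM with VC (log2 fold change -2.27, adjusted p = 8.82e-17). Vegfa fell by 0.47 (adjusted p = 0.0086, or 0.0541 without day 4 replicate 3), and Egln3, an oxygen-sensing prolyl hydroxylase, did not pass the test (0.22, adjusted p = 0.304). The glucose transporter gene Slc2a1 was called higher (0.43, adjusted p = 0.0246), but not without plus VC replicate 2 (adjusted p = 0.0523), plus VC replicate 3 (0.199), day 4 replicate 1 (0.0589) or day 4 replicate 3 (0.106).

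Targets of the stress factor ATF4, which include genes of serine synthesis, moved in both directions, with 6 of the 18 listed called higher and 4 lower. Psat1, the aminotransferase of serine synthesis, was at 40.3, 47.1 and 35.5 CPM at day 4 and 184, 216 and 212 CPM with VC (log2 fold change 2.32, SE 0.15, adjusted p = 3.18e-15). Shmt2, the mitochondrial enzyme that feeds one-carbon units from serine, and the amino acid transporter gene Slc7a5 rose by 0.71 and 0.83, and Asns (asparagine synthetase) by 0.43. Phgdh, the entry enzyme of serine synthesis, rose by 0.40 (adjusted p = 0.00918), a call lost without plus VC replicate 3 (adjusted p = 0.0881) or day 4 replicate 1 (adjusted p = 0.0582). Among the lower ones Atf5 was at 335, 391 and 271 CPM at day 4 and 102, 131 and 127 CPM with VC (log2 fold change -1.47, adjusted p = 1.14e-11), and Ddit3 (CHOP) and Trib3 fell by 1.49 and 2.19.

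Antioxidant targets of NRF2 rose modestly, with 11 of 18 called higher and none lower (median 0.40), or 6 higher without plus VC replicate 3. Me1 and Hmox1 rose by 0.53 and 0.62, and Nqo1 by 0.66 (adjusted p = 0.00222, or 0.0611 without plus VC replicate 3). Of 28 genes of cholesterol and fatty acid synthesis, 4 were called higher and 5 lower (median -0.10), near the shares of all genes, or 2 higher without day 4 replicate 2. Elovl6, which elongates fatty acids, rose by 1.17 (adjusted p = 2.83e-08), and Insig1, the brake on SREBP, fell by 0.80 (adjusted p = 7.06e-06). The call of Fasn (0.32, adjusted p = 0.0378) rested on several libraries. It was lost without plus VC replicate 1 (adjusted p = 0.126) or 2 (0.172) and without day 4 replicate 2 (0.0772) or 3 (0.129).

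Genes of ribosome biogenesis rose. Of 24 nucleolar genes, 23 were called higher and none lower (median 0.73). Npm1 (nucleophosmin), a chaperone of ribosome assembly, was at 593, 670.1 and 551 CPM at day 4 and 1308, 1457 and 1468 CPM with VC (log2 fold change 1.22, SE 0.11, adjusted p = 2.26e-11). Dkc1, which modifies ribosomal RNA and stabilises telomerase RNA, was at 20.4, 18.3 and 23.8 CPM at day 4 and 68.4, 47.0 and 50.6 CPM with VC (log2 fold change 1.41, adjusted p = 2.43e-11). Every library with VC lay above every library without it in both. Nop56 and Ncl (nucleolin) rose by 1.20 and 1.03. Of 78 tested genes for cytosolic ribosomal proteins, 46 were called higher and none lower (median 0.44), and the number was 29 without plus VC replicate 2, 26 without plus VC replicate 3 and 21 without day 4 replicate 3. Rpl13a rose by 1.11 (adjusted p = 4.49e-08). Of the 12 mitochondrially encoded genes tested, edgeR with all 36 libraries and DESeq2 called 0, with 3 higher at an unadjusted p under 0.05 in edgeR (median 0.43). EdgeR called 8 higher with no filter on low counts, 2 without plus VC replicate 3 and 1 without day 4 replicate 2 or with only the 6 libraries.

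Chromatin genes were called in both directions. Ezh2, the catalytic subunit of Polycomb complex 2, was at 9.34, 10.4 and 11.2 CPM at day 4 and 26.5, 21.2 and 26.1 CPM with VC (log2 fold change 1.25, adjusted p = 5.19e-07), and its partner Suz12 rose by 0.63. Cbx7, a reader in Polycomb complex 1, fell by 0.99. Of 24 Polycomb genes, 4 were called higher, the share of all genes, and 7 lower. Of 11 genes for writers and readers of H3K9 methylation 5 were called higher, with Suv39h1 at 0.59, and the number was 3 without plus VC replicate 2 or without day 4 replicate 3. Of 34 Hox genes tested, 2 were called higher and 5 lower, both under the shares of all genes; the posterior genes Hoxb13 and Hoxc13, which mark cells of the tail, fell by 1.17 and 0.71.

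Among imprinted genes lower calls outnumbered higher ones, with 9 of 19 tested lower and 3 higher. H19 (chromosome 7, 142129262 to 142131886, GRCm39), a maternally expressed lncRNA, was at 66.0, 70.0 and 32.0 CPM at day 4 and 1.96, 2.95 and 2.16 CPM with VC (log2 fold change -4.57, SE 0.37, adjusted p = 5.49e-11). Peg10, a paternally expressed gene of retroviral origin that placenta needs, was at 3.37, 3.45 and 3.40 CPM at day 4 and 62.3, 50.6 and 46.6 CPM with VC (log2 fold change 3.96, adjusted p = 3.18e-15). The groups did not overlap in either. Mest and Ndn fell by 1.90 and 1.07. Meg3 fell by 2.09 (adjusted p = 0.0481), but day 4 replicate 3 held 7.55 CPM beside 1.19 and 1.41 CPM in the others, and its adjusted p was 0.589 without it and 0.0785, 0.085 and 0.152 without plus VC replicates 1, 2 and 3. Of 19 germline genes, 6 were tested; Ddx4 (Vasa), an RNA helicase of germ cells, was at 3.96, 3.76 and 3.99 CPM at day 4 and 0.211, 0.334 and 0.263 CPM with VC (log2 fold change -3.83, adjusted p = 3.1e-09), and Dazl had at most 6 counts in any library and was not tested.

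Markers of other cell types that a tail tip culture could hold were mostly low. Melanocyte and Schwann cell markers fell, with 4 of 6 tested called lower, none higher and a summed level of 16.4 to 21.0 CPM at day 4 and 7.88 to 8.74 CPM with VC; Mitf fell by 1.04, and Tyr and Dct were at 0 in all 6 libraries. Leukocyte markers summed to 6.48 to 6.84 CPM at day 4 and 2.45 to 2.91 CPM with VC, Csf1r fell by 2.04 and Lyz2 fell by 1.73, and Cd3e was at 0 throughout. Adipocyte markers summed to 2.55 to 5.17 CPM and 1.11 to 1.48 CPM, and Pparg fell by 2.10. Endothelial markers summed to 329 to 347 CPM at day 4 and 384 to 515 CPM with VC. Pecam1 (CD31) was at 134, 128 and 116 CPM at day 4 and 289, 242 and 211 CPM with VC (log2 fold change 0.97, adjusted p = 3.27e-07), while Emcn (endomucin) fell by 2.11. Of 5 tested cartilage and bone markers, 1 was called in each direction, with summed levels of 30.7 to 43.1 CPM and 24.0 to 32.0 CPM. The part of changes in these cells in the results above was not tested.

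Among called genes without overlap and with at least 1 CPM in the higher group, the largest folds belonged to genes that were near silent in one of the groups. Clec2g (chromosome 6, 128911344 to 128961670, GRCm39), a C-type lectin of the natural killer gene complex, was at 0.597, 0.105 and 0.486 CPM at day 4 and 26.4, 30.0 and 26.0 CPM with VC (log2 fold change 6.10, SE 0.46, adjusted p = 7.84e-13). The atrial myosin light chain gene Myl7 was at 0.434, 0.732 and 0.863 CPM at day 4 and 16.4, 21.5 and 25.1 CPM with VC (log2 fold change 4.94), and Elmod1 and the transcription factor gene Nfe2l3 rose by 4.70 and 4.57. Cnfn, given above, ranked 3 among those of them that rose. Btn1a1 (butyrophilin) had 2, 0 and 0 counts at day 4 and 52, 38 and 27 with VC, a depth-scaled ratio of summed counts of 58.8 with an exact 95% interval of 15.9 to 491 that covers counting error only. For Frem3 the counts were 2, 0 and 0 against 23, 26 and 31 (ratio 40.2, interval 10.8 to 337). Those of Calcoco2 were 0, 0 and 3 against 29, 46 and 25 (ratio 33.5, interval 11.1 to 165). Fitted fold changes of these 3 genes depend on the prior count.

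Among genes that fell by the same rule, Sostdc1 (chromosome 12, 36364138 to 36368451, GRCm39), a secreted antagonist of BMP and Wnt signalling, was at 13.5, 16.2 and 13.4 CPM at day 4 and 0.159, 0.279 and 0 CPM with VC (log2 fold change -6.57, adjusted p = 9.29e-13). Ecel1, an endopeptidase of the nervous system, had 48, 45 and 29 counts at day 4 and 0, 2 and 1 with VC (ratio of day 4 to plus VC 40.5, interval 13.5 to 199). The glycogen regulator gene Ppp1r3c was at 7.22, 5.54 and 5.83 CPM at day 4 and 0.0530, 0.390 and 0.105 CPM with VC (log2 fold change -5.05). Rgs5, a marker of pericytes, was at 7.44, 6.06 and 10.2 CPM at day 4 and 0.476, 0.279 and 0.263 CPM with VC (log2 fold change -4.51), while the lncRNA Ly6a2 fell by 4.61 and Cmah, which hydroxylates sialic acid, fell by 4.38. Rarres2 (chemerin) was at 3.80, 6.69 and 3.08 CPM at day 4 and 0.317, 0.0560 and 0 CPM with VC (log2 fold change -5.10), with 33.6% of its exon bases shared with Lrrc61 on the opposite strand.

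The effect of VC at day 4 was compared with that in WT cells to ask whether it depended on the cell line. The difference between the effects was tested as an interaction, a higher effect being the greater signed log2 fold change and not always the greater change, and the 2 effects share no library. Of the genes tested, 523 (3.30%) had a higher effect in D/KO cells and 909 (5.74%) a lower one. The mitosis list had a median of 1.58 in D/KO cells and one of 1.64 in WT cells, and 0 of the 28 genes were called in edgeR's test of the difference, with 1 higher and 2 lower at an unadjusted p under 0.05. Mki67 was at 3.58, 4.66 and 4.08 CPM without and 19.5, 14.5 and 21.4 CPM with VC in WT cells (difference of log2 effects 0.25, adjusted p = 0.811). For Axin2 the difference was -1.01 (adjusted p = 0.0811), and it passed the threshold without plus VC replicate 3 of D/KO day 4 (adjusted p = 0.0339), replicate 1 without VC (adjusted p = 0.0287) or the filter on low counts (adjusted p = 0.0294). Cdh1 was at or under 0.233 CPM in every WT library at day 4, with and without VC. For Ercc1 the difference was -0.01 (adjusted p = 0.998).

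**Figure D3:**
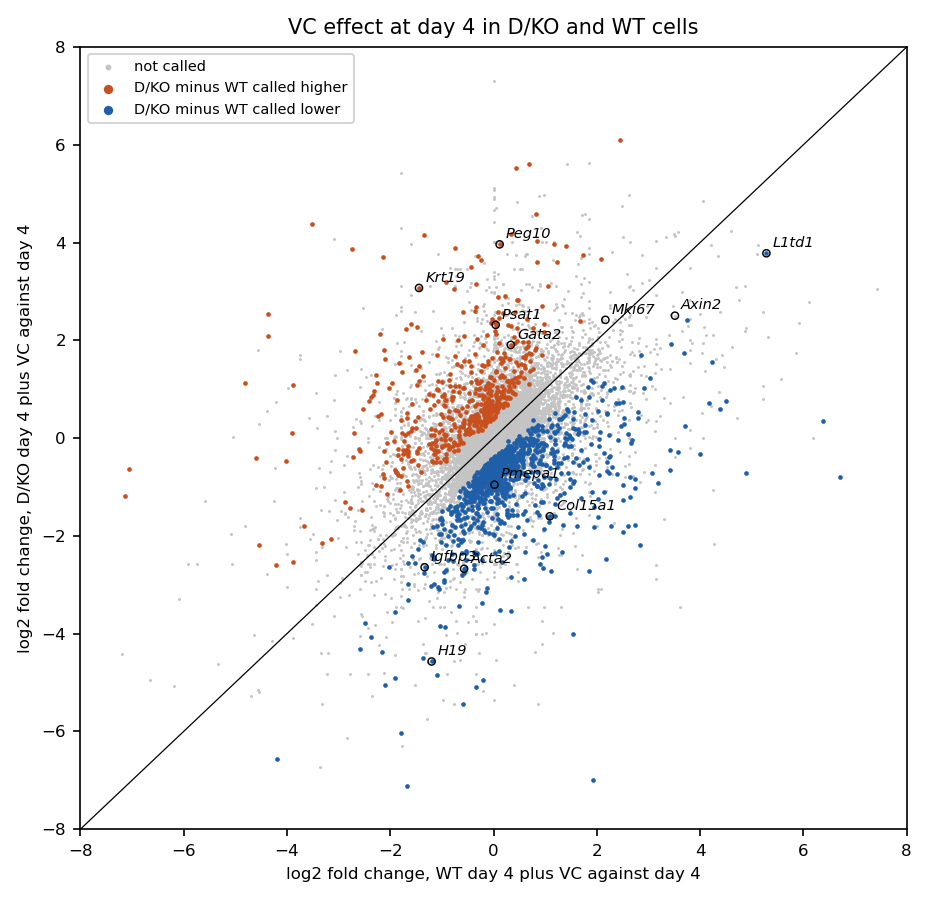
Log2 fold change of day 4 plus VC against day 4 in WT cells (horizontal axis) and D/KO cells (vertical axis), 1 point a gene, with the line of equal effects. Orange and blue mark genes whose effect was called higher (523) or lower (909) in D/KO cells by the interaction test, and Krt19 and Peg10 lie above the line while Col15a1, Acta2 and H19 lie below it.

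Many collagen chains separated the lines, and fewer genes of the other matrix lists did. Of the 19 lysyl oxidase and elastic fibre genes, 7 had a lower effect in D/KO cells and 3 a higher one. In WT cells 10 of these were called lower with VC and 2 higher. Of the 17 metalloproteinase and inhibitor genes, 3 had a lower effect in D/KO cells and 1 a higher one. For the 21 collagen chains the median was -0.47 in D/KO cells and 0.11 with the WT genotype, and 12 chains had a lower and 1 a higher effect in D/KO cells. Col15a1 fell in D/KO cells and went from 120.4, 116 and 114 CPM to 281, 224 and 241 CPM in WT cells (difference -2.69, adjusted p = 1.71e-12). Of the 13 contractile genes 5 had a lower effect in D/KO cells. Acta2 was at 65.5, 54.7 and 54.0 CPM and, with VC, 37.8, 41.6 and 37.9 CPM in WT cells (difference -2.10, adjusted p = 1.06e-07). Of the 13 insulin-like growth factor genes 7 had a lower effect and 1 a higher one, with Igfbp3 at -1.31 (adjusted p = 4.6e-06). Igfbp3 was lower with VC in WT cells too, at a mean of 1604 CPM without and 635.9 CPM with VC. Col1a1 rose in WT cells, from 12250, 11080 and 11750 CPM to 22860, 18690 and 17960 CPM (difference -0.80, adjusted p = 0.0149). The difference was -1.49 for Col8a1, -0.97 for Pmepa1 and -3.37 for H19. In WT cells Col8a1 had a mean of 1042 CPM without and 695.2 CPM with VC, and H19 one of 24.38 and 10.62 CPM. Pmepa1 had means of 258 and 261.2 CPM there.

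Other genes differed in the opposite direction. Of the 18 ATF4 and serine genes, 9 had a higher effect in D/KO cells and none a lower one (medians 0.16 and -0.57). In WT cells 9 were called lower with VC and none higher, beside 1640 lower and 1875 higher of all 15832 genes tested. Psat1 was at 33.0 to 36.4 CPM without and 33.7 to 37.0 CPM with VC in WT cells, a difference of 2.27 (adjusted p = 2.15e-10), and the difference of Slc7a5 was 1.61 (adjusted p = 2.56e-08). Of the 30 glycolysis and hypoxia genes, 8 had a higher and 2 a lower effect. Krt19 fell in WT cells, from 13.8, 10.9 and 12.9 CPM to 5.46, 4.28 and 4.09 CPM (difference 4.51, adjusted p = 1.06e-13). The differences of Peg10 and Gata2 were 3.84 and 1.57. Apcdd1 and L1td1 had smaller log2 effects in D/KO cells (-1.31 and -1.50), over lower levels without VC in WT cells. L1td1 was at 0.358, 0.106 and 0.607 CPM without and 13.5, 15.5 and 13.2 CPM with VC in WT cells, all under its D/KO levels with the same treatment, and Apcdd1 at 23.2, 25.9 and 26.1 CPM and 107, 103 and 109.6 CPM. The call of L1td1 was lost without WT day 4 replicate 1 (adjusted p = 0.0631) or 2 (adjusted p = 0.127).

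**Figure D4:**
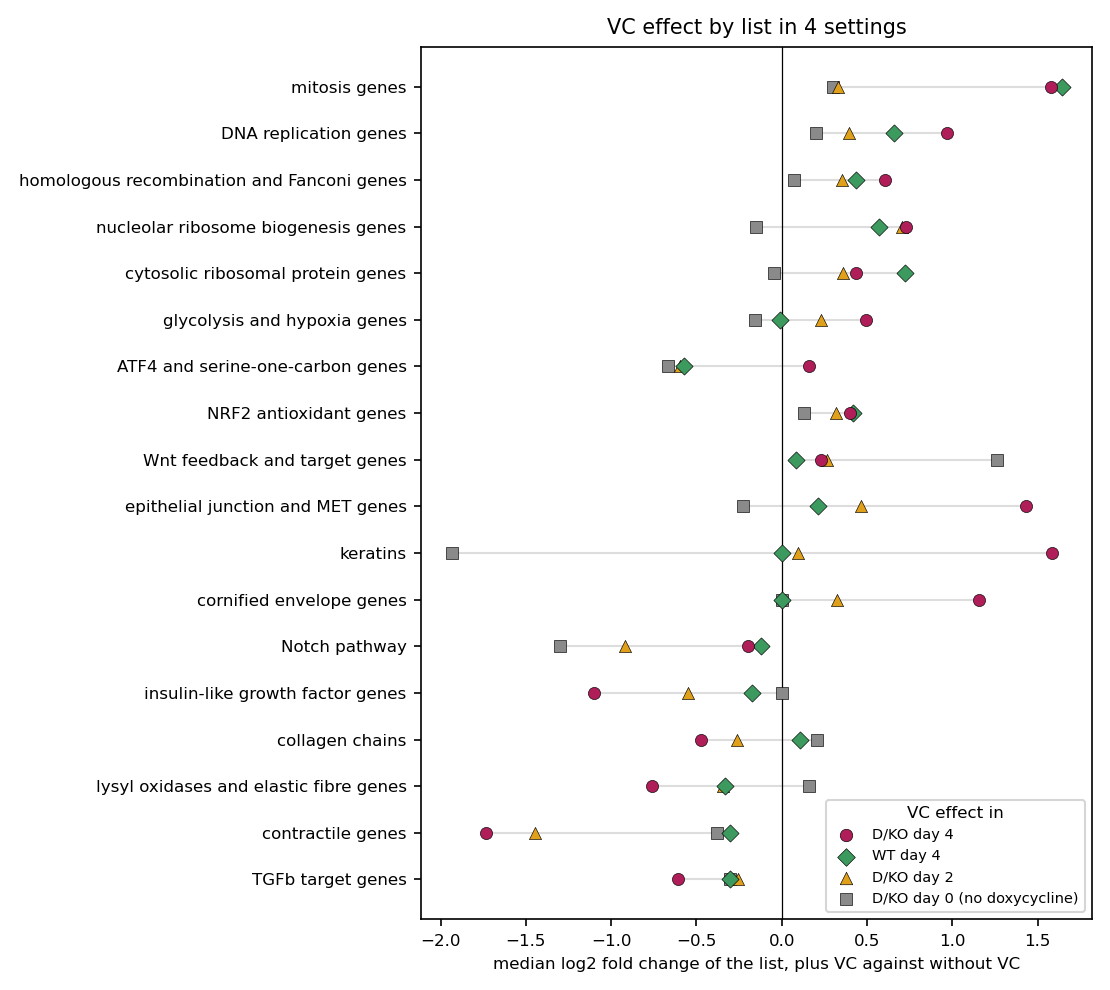
Median log2 fold change of plus VC against without VC for 18 gene lists (rows) in D/KO cells at day 4 (circles), WT cells at day 4 (diamonds), D/KO cells at day 2 (triangles) and D/KO cells at day 0 without doxycycline (squares). Mitosis genes were near 1.6 at day 4 in both lines and near 0.3 at day 0 and day 2, while Wnt targets had their highest median (1.26) at day 0.

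The effect of VC at day 0 was measured in cells that received no doxycycline. The paper does not state how long these cells were kept in VC. Doxycycline and a different time in VC therefore cannot be told apart in a difference between day 4 and day 0. Between day 4 and day 0 in D/KO cells, 2127 genes (13.4%) had a higher effect at day 4 and 2101 (13.3%) a lower one. Axin2 was at 0.129, 0.293 and 0.236 CPM at day 0 and 33.8, 24.1 and 32.4 CPM with VC, and its effect was smaller at day 4 (difference -4.54 on the log2 scale, adjusted p = 2.35e-09). The median of the Wnt target list was 1.26 at day 0 and 0.23 at day 4. Nkd1, which fell at day 4, rose at day 0 (difference -2.97, adjusted p = 9.98e-07). Division genes responded more at day 4. The mitosis median was 0.30 at day 0, and 26 of 28 genes had a higher effect at day 4, Mki67 by 2.31 (adjusted p = 6.82e-05). The same held for 22 of 24 nucleolar genes, Npm1 by 1.22, and for Myc (1.38, adjusted p = 5.74e-09). Col1a1 rose with VC at day 0, from 59620, 40930 and 42150 CPM to 103900, 164600 and 139400 CPM (difference -1.55, adjusted p = 8.54e-07), and 12 of 21 collagen chains had a lower effect at day 4 and 3 a higher one. Krt8 was at 0.774, 0.587 and 1.71 CPM at day 0 and 0, 0.151 and 0.0702 CPM with VC, where its counts were 0, 2 and 1, so that the fitted difference depends on the prior count (difference 7.71, adjusted p = 3e-08).

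**Figure D5:**
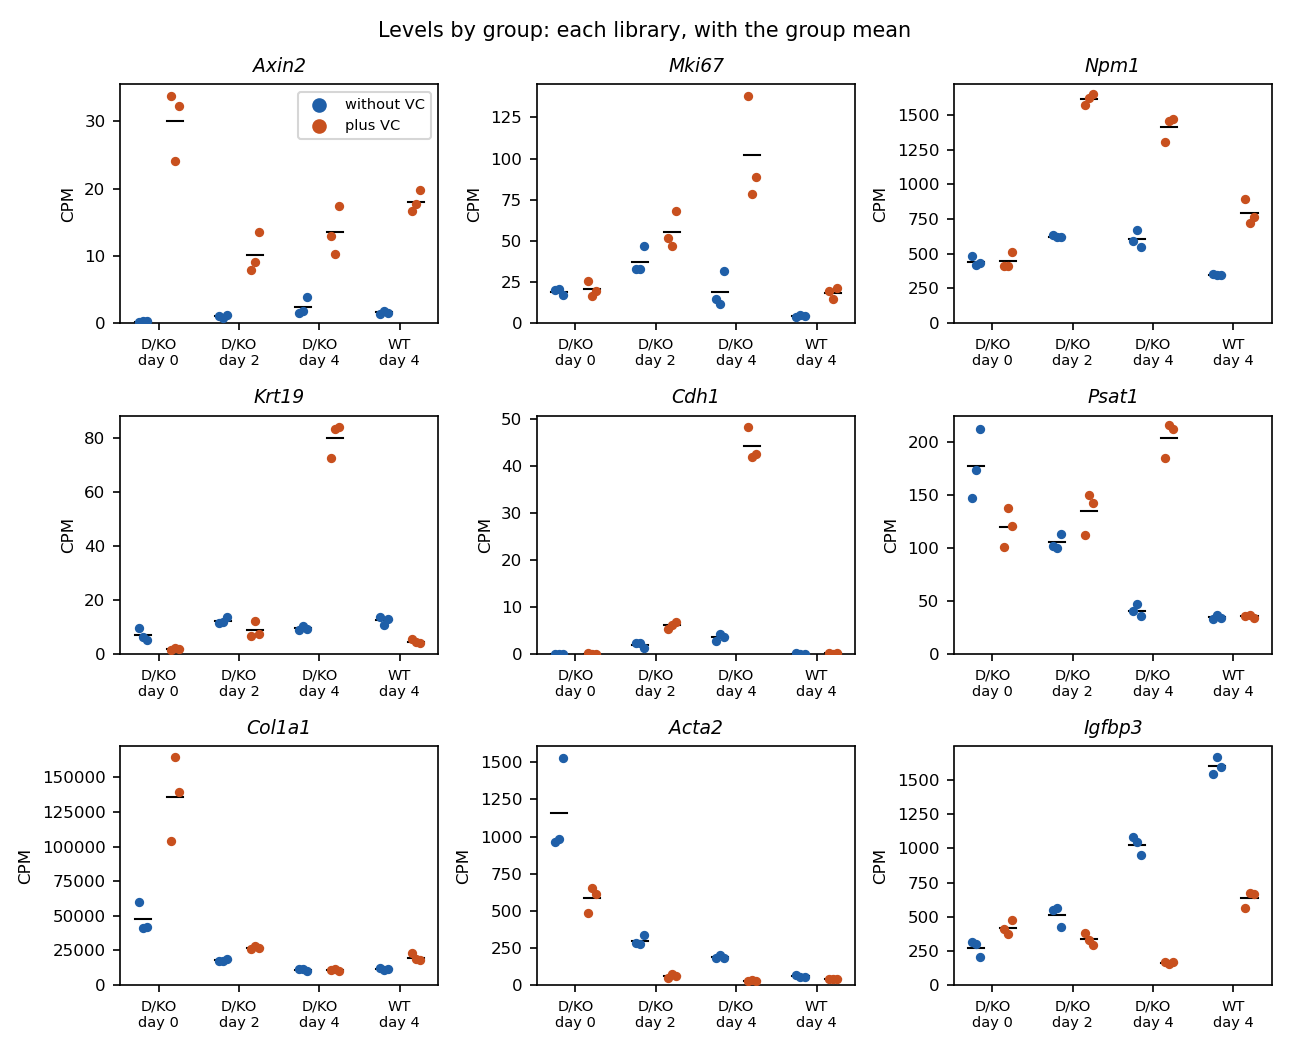
Level in CPM (vertical axes start at 0) of 9 genes in each library of D/KO cells at day 0, day 2 and day 4 and of WT cells at day 4, without VC (blue) and with VC (orange), with group means as bars. Axin2 lies higher with VC in every setting, and Cdh1 reaches its highest levels with VC at day 4 in D/KO cells. Krt19 and Psat1 rise at day 4 in D/KO cells and not in WT cells. Col1a1 lies higher with VC at day 0 and day 2 in D/KO cells and at day 4 in WT cells, and not at day 4 in D/KO cells.

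The effect at day 4 was also set beside that at day 2, with 511 genes (3.23%) higher at day 4 and 461 (2.91%) lower. Within day 2, 1737 of all 15832 genes tested were called higher with VC and 2241 lower. Of the 28 mitosis genes, 24 had a higher effect at day 4 and none a lower one, and Mki67 went from 32.6, 32.9 and 46.7 CPM to 51.9, 46.6 and 68.1 CPM at day 2 (difference 1.85, adjusted p = 0.00251). The nucleolar list had medians of 0.73 at day 4 and 0.71 at day 2, and 0 genes of it were called in edgeR's test of the difference, with 1 higher at an unadjusted p under 0.05. Of 14 Notch pathway genes 10 were called lower at day 2 (median -0.92, against -0.20 at day 4), and 7 had a higher effect at day 4, among them Notch4 (2.83, adjusted p = 1.96e-10). Of 18 ATF4 and serine genes, 10 were called lower at day 2 and none higher, and 8 had a higher effect at day 4 and none a lower one, with Psat1 at 1.96. Krt19 and Gata2, which VC did not raise at day 2, differed by 3.56 and 2.00. Avil, which encodes the actin regulator advillin, was at 8.74, 8.05 and 8.79 CPM at day 4 and 72.1, 88.2 and 72.5 CPM with VC, while at day 2 it was at 30.2, 30.4 and 40.2 CPM without and 8.80, 11.2 and 13.4 CPM with VC (difference 4.78, adjusted p = 4.31e-17).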

How the data were processed

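PolyA RNA of tail tip fibroblasts was sequenced in paired ends of 150 bases. The authors trimmed reads with Trim Galore after FastQC, aligned them to GRCm39 with HISAT2 and counted them per gene with featureCounts of Subread. The versions and the strand setting are not given in the sources used here. The deposited raw counts were used as deposited, and the table of the TGFB inhibitor experiment was not used here.

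Counts were analysed with R 4.3.3 and edgeR 4.0.16 (limma 3.58.1). Genes passed filterByExpr (at least 10 counts a library on its scaled rule and 15 in total), libraries were scaled by TMM, and a robust quasi-likelihood model was fitted to all 36 libraries of the table in 12 groups of 3, so that all groups shared 1 estimate of the spread (common coefficient of variation 0.132). The contrasts were the VC effect at day 4 in D/KO cells and its differences from the VC effect in WT cells at day 4 and in D/KO cells at day 0 and day 2. Adjusted p-values are Benjamini-Hochberg values over all 15832 genes tested. The script was tested on simulated data. Symbols came from GENCODE M39 and matched 98.7% of 56980 identifiers. Library totals of 16538374 to 18484951 counts limit the precision for genes under about 1 CPM.

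Named genes were the 8 with the largest and 8 with the smallest log2 fold change among called, non-overlapping genes with at least 1 CPM in the higher group, the key members of each gene list, further members in order of their p-value up to 6 a direction, the 3 extreme genes of each difference in each direction, and Ercc1. Some genes that this rule names are not reported here. The members compared and the gene lists were chosen with earlier results of these data known, and no list is tested as a set. Alternatives were DESeq2 1.42.0, RLE scaling, other filters on low counts, a call rule with a fold threshold, fewer libraries in the fit and each library left out in turn.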

Additional observations from a re-analysis of the deposited data

Results flagged for a closer look

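The following genes had a VC effect at day 4 in D/KO cells that differed from the VC effect in another setting by a test of the difference itself, edgeR's interaction term at an adjusted p under 0.05 over all genes. Values are the log2 fold change in D/KO cells at day 4 minus that in the other setting, so a positive value can also mark a smaller fall. They are listed as values, and no cause was tested.

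Against WT cells at day 4, the difference was 4.51 for Krt19, 3.84 for Peg10, 2.27 for Psat1, 1.61 for Slc7a5 and 1.57 for Gata2. It was -3.37 for H19, -2.69 for Col15a1, -2.10 for Acta2, -1.50 for L1td1, -1.49 for Col8a1, -1.31 for Igfbp3, -1.31 for Apcdd1 and -0.97 for Pmepa1. The extremes of this contrast rested on few counts. Cwh43 (6.91) had 8, 0 and 0 counts in WT cells without VC and 0 in all 3 WT libraries with VC, and its call was lost without WT day 4 replicate 1 (adjusted p = 1) or without WT day 4 plus VC replicate 1 (0.0635), 2 (0.0684) or 3 (0.0676). Kcnk3 (5.95), a potassium channel gene, and Gucy1b1 (5.95), a subunit of the nitric oxide receptor, were also at 0 in every WT library with VC. Slc39a4 (-5.59), a zinc importer gene, was at 0 in every WT library without VC. N4bp2l1 (-5.44) had 26, 8 and 21 counts at day 4 in D/KO cells and 0 in all 3 libraries with VC, which is at least 18.3-fold lower when the floor of 3 counts is taken over the group. Fitted values of these 5 genes depend on the prior count. Tspan8 (-5.02), a tetraspanin gene, had 32, 36 and 39 counts at day 4 and 9, 13 and 1 with VC in D/KO cells, and 8, 8 and 6 against 27, 66 and 61 in WT cells.

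Against D/KO cells at day 0, the difference was 2.31 for Mki67, 1.38 for Myc and 1.22 for Npm1, and -4.54 for Axin2, -2.97 for Nkd1 and -1.55 for Col1a1. Krt8 (7.71) and Pkhd1l1 (7.83) were higher and had 3 counts and 0 counts over the day 0 libraries with VC. Btn1a1 (8.35) had 2 counts in all at day 0, and its call was lost without D/KO day 0 replicate 2 (adjusted p = 1). C2cd4a (-7.99) had 0 counts at day 0 and 29, 28 and 35 with VC, beside 10, 13 and 4 against 6, 10 and 16 at day 4. Rbpjl (-7.21) had 1, 0 and 1 counts at day 0 and 44, 44 and 23 with VC. Serpind1 (-7.02) had 1, 0 and 1 at day 0 and 65, 61 and 29 with VC, and at most 2 counts in any D/KO library at day 4, and its call was lost without D/KO day 4 replicate 2 (adjusted p = 0.969). These 6 fitted values depend on the prior count.

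Against D/KO cells at day 2, the difference was 3.56 for Krt19, 2.83 for Notch4, 2.00 for Gata2, 1.96 for Psat1 and 1.85 for Mki67. It was 5.10 for Wfdc2, with 10, 24 and 7 counts without and 5, 14 and 2 with VC at day 2 and 4, 6 and 0 against 43, 70 and 73 at day 4. It was 5.10 for Heyl, which had 1 count over the day 2 libraries with VC, and 4.78 for Avil. Opcml (-3.50), an adhesion protein gene, had 4, 15 and 5 counts against 21, 31 and 26 at day 2 and 11, 31 and 22 against 8, 5 and 5 at day 4. Kcns2 (-3.26) also had a lower effect at day 4.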

How the results depend on the processing

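Of 189 called genes named for the VC effect at day 4 in D/KO cells, 18 lost the call under an alternative other than the fold threshold, 15 of them without 1 library. With at least 10 counts in every library 135 of the 189 were tested, and all 135 kept the call. DESeq2 did not call Calcoco2 (adjusted p = 0.624), Frem3 (0.0668) or Krt6a (0.141). Calls numbered 2636 higher and 2802 lower, 2785 and 2898 with DESeq2, 2658 and 2788 with RLE scaling, 1959 and 2061 with only the 6 libraries, and 2126 to 2531 and 2377 to 2706 without 1 library. A log2 fold change of at least 1 left 907 higher and 927 lower, 289 and 419 for the difference from WT cells, 904 and 989 from day 0, and 204 lower from day 2. With only the 12 libraries, 1290 genes were higher against day 0. Without 1 library the difference from WT cells gave 403 to 724 (without D/KO day 4 replicate 3) higher and 692 to 1071 lower, that from day 0 1803 to 2100 and 1880 to 2141, and that from day 2 389 to 583 and 347 to 535.

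Log2 values that changed sign belonged to genes that were not called. Without 1 library they ranged from -0.3598 to 0.0115 for Ccl2, -0.0617 to 0.9895 for Cxcl1, -0.1608 to 0.1183 for Ercc1, -0.4993 to 0.0227 for Id1, -0.1403 to 0.1687 for Kdm2b, -0.0312 to 0.4493 for Plod2 and -0.0818 to 0.1781 for Vim. Against WT cells they ranged from -0.1685 to 0.1108 for Ercc1 and -0.027 to 0.8117 for Mki67. Ercc1 was at 0.0055 with at least 10 counts everywhere, 0.0016 with DESeq2 or RLE scaling and 0 with only the 18 D/KO libraries, and against WT cells at 0.009 with DESeq2 or RLE scaling. The cause was not tested. With at least 10 counts in every library, which removes genes that are low in any group, 2 epithelial, 1 keratin and 1 cornified gene were still called higher, and the cornified median was -0.40. No paired analysis was possible because the labels number the libraries serially across the series and give no replicate number within a group. Counts under about 10 a library limit what can be said of Nanog, Epcam and Il6.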
